A study of Rattus norvegicus with 18 samples.

Results

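The aquaporin genes Aqp1, Aqp2, Aqp3 and Aqp4, which encode the main water channels of the renal tubule, were examined in kidney RNA from a diabetic nephropathy study. They are 4 of the 55335 gene identifiers in the deposited count table and 4 of the 19233 that were tested after a filter on low counts. They were chosen by identifier: ENSMUSG00000004655 for Aqp1, ENSMUSG00000023013 for Aqp2, ENSMUSG00000028435 for Aqp3 and ENSMUSG00000024411 for Aqp4. All 4 passed the filter. Polyadenylated kidney RNA was sequenced in 18 libraries, 6 per group. Control animals (Ctrl) had ordinary feed and solvent by gavage, and the model group (DN) had a high-fat diet with STZ injection, a toxin of pancreatic beta cells. The treated group (Treat) consisted of DN animals dosed orally with TSK, which the labels name only by this abbreviation, at 500 mg/kg per day for 4 weeks. The labels state no strain, sex or age, and give rat as the species while every identifier in the table is a mouse one. Reads of a rat that differ from the mouse sequence could be lost unevenly between genes, so levels of different aquaporins are not ranked against each other.

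Aquaporins are membrane channels through which water follows an osmotic gradient. Aqp1 is constitutively present in the proximal tubule and the thin descending limb, where most filtered water is taken back, and also in the endothelium of the descending vasa recta. Aqp2 is the channel of collecting duct principal cells that vasopressin moves into the apical membrane through cyclic AMP, and vasopressin also raises its transcription. Aqp3 and Aqp4 lie in the basolateral membrane of the same cells, where the water leaves towards the interstitium, and Aqp3 also conducts glycerol. The 4 genes therefore cover a proximal channel, the regulated apical channel of the collecting duct and its basolateral exits. In RNA from bulk tissue, fewer cells of a type and less RNA per cell cannot be told apart.

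The sequences directly upstream of Aqp2, Aqp3 and Aqp1 are shown because these 3 genes were lower in the model kidneys and the first is known as a target of cyclic AMP. They are the 250 bases before the annotated start in rat (RefSeq, build GRCr8), read 5′ to 3′ in the direction of the gene, from chr7:132590036-132590285 (plus strand) for Aqp2, chr5:61040684-61040933 (minus strand) for Aqp3 and chr4:85812534-85812783 (plus strand) for Aqp1. Capitals mark matches, on either strand, to one of 5 short motifs. The core of the cyclic AMP response element was searched as TGACGT. A motif of the GATA factors was searched as AGATAA, and the E-box as CACGTG. The promoter elements of the basal machinery were the box bound by the TATA-binding protein, searched as TATAAA, and the GC-rich box of Sp factors, searched as GGGCGG.
Aqp2: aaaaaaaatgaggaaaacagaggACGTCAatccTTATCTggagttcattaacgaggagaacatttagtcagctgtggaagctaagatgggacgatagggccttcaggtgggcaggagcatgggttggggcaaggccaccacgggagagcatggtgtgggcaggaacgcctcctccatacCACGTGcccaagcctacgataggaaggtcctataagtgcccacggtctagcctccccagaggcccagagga
Aqp3: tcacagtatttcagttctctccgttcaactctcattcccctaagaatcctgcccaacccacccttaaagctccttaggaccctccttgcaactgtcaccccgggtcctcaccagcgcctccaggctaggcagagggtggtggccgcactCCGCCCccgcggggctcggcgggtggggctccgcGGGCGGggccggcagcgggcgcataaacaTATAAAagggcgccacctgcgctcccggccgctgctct
Aqp1: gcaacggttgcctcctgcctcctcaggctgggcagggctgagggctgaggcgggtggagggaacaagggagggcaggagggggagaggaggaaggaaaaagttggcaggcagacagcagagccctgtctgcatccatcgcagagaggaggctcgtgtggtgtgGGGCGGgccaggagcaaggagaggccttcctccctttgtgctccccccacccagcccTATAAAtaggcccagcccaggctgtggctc
The Aqp2 sequence held TGACGT on the opposite strand at -227 to -222 from the start, AGATAA on the opposite strand at -217 to -212, and CACGTG at -71 to -66. Of 33469 annotated rat promoters, 6.95% hold TGACGT within the same 250 bases, 10.3% hold AGATAA and 5.59% hold CACGTG. The full palindrome TGACGTCA, which contains TGACGT and is in 1.59% of the promoters, was in none of the 3 sequences. Aqp3 and Aqp1 had TATAAA at -38 to -33 and -30 to -25 (12.9% of promoters). They also had GGGCGG (30.5% of promoters), once in Aqp1 at -87 to -82, and in Aqp3 at -101 to -96 on the opposite strand and at -67 to -62. A match is only a match of letters, and binding was not measured.

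Library totals ranged from 22040987 to 35275498 counts, and the lowest count of any aquaporin in a library was 587. Control library 4 and treated library 1 stood apart from the rest on the second principal component of log2 expression (10.6% of the variance), at -54.2 and -78.8 against -25.2 to 26.8 in the other libraries. The controls were also divided. For 8 identifiers, control libraries 1, 2, 3, 5 and 6 differed all-or-none (at least 10-fold, with at least 0.5 CPM, counts scaled to a common library size, on the high side) from the 12 DN and treated libraries and from the remaining control, library 4. Of these, 7 were low and 1 was high in the 5 controls. The same search with another control in place of library 4 gave at most 1 identifier. What these identifiers encode is not named in the files, and whether the 5 controls differed from all other animals in sex or another trait was not tested. Along the axis of largest variance (the first principal component, 40.5%), control library 4 went with the controls, at -59.8 beside -83.6 to -65.7 in the other controls, 16.6 to 37 in DN and 26.6 to 59.4 in Treat. Differences between Ctrl and the other groups cannot be told apart from whatever sets those 5 controls apart, except through control library 4, so the values of that library are given beside them. Beyond the 4 aquaporins, identifiers could not be paired with gene names, so markers of nephron segments or of other cell types were not measured by name, and their part in the results was not tested.

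Aqp2, the vasopressin-regulated channel, was the aquaporin with the largest called difference between model and control kidneys. Its level in Ctrl ran from 109.3 to 211.4 CPM with a median of 165.6, and in DN from 32.6 to 105.5 CPM with a median of 65.33. Every DN library was below every control (DN library 1, the highest, at 105.5 CPM and control library 1, the lowest, at 109.3 CPM). The Ctrl mean was 161.9 ± 36.5 CPM and the DN mean 63.3 ± 24.9 CPM (SD, n = 6 each), a 2.56-fold fall. The log2 fold change was -1.36 (SE 0.34, 95% interval -2.08 to -0.63; quasi-likelihood test of edgeR, adjusted p = 0.00594 by Benjamini and Hochberg over all genes tested). Only 2.49% of the tested genes had a lower log2 fold change. Control library 4 had the highest Aqp2 level of the controls, at 211.4 CPM, which was 3.34 times the DN mean. It stood apart on the second principal component, as did treated library 1, which held 275.7 CPM of Aqp2. Whether its Aqp2 level goes with that was not tested.

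Aqp3, the basolateral water and glycerol channel of principal cells, varied little within groups, with a coefficient of variation of 8.06% to 11.9%. It ran from 64.56 to 86.02 CPM in Ctrl (median 71.53) and from 37.61 to 50.48 CPM in DN (median 44.45). The groups were far apart relative to their spread, with no overlap. The mean fell from 73.4 ± 8.73 to 44.34 ± 4.84 CPM (SD, n = 6 each), a log2 fold change of -0.73 (SE 0.09; edgeR adjusted p = 8.97e-06). Control library 4 stood at 65.64 CPM, above all 6 DN libraries.

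Aqp4, the second basolateral exit of the collecting duct, was more variable. Its levels in Ctrl ran from 54.68 to 166 CPM with a median of 77.2, and those in DN from 32.83 to 76.07 CPM with a median of 43.02. All DN libraries were below the control median, but 2 of them overlapped the control range. The means were 89.2 ± 41.4 CPM in Ctrl and 50.08 ± 17.5 CPM in DN (SD, n = 6 each). The log2 fold change of -0.83 (SE 0.38, 95% interval -1.64 to -0.03) did not pass the test (edgeR adjusted p = 0.104). Treated library 1 is in neither group but enters the shared estimate of the spread. In the fit without it the log2 fold change was again -0.83, with an SE of 0.28 and an edgeR adjusted p of 0.0296 (17.4% of genes were called lower in that fit). Without control library 4, the highest control, the log2 fold change was -0.56 (adjusted p = 0.264). Without both libraries it was -0.57 (SE 0.25, edgeR adjusted p = 0.0783). The call gained without treated library 1 thus also needed control library 4.

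Aqp1, the constitutive channel of the proximal tubule and descending limb, had the smallest of the called falls. It ran from 514.1 to 719.3 CPM in Ctrl (median 645.8) and from 365.9 to 529.7 CPM in DN (median 480.9). The ranges overlapped through control library 4, the lowest control, which was below 1 DN library. Mean expression fell from 633 ± 72.8 to 469.4 ± 56 CPM (SD, n = 6 each), with a log2 fold change of -0.43 (SE 0.12; edgeR adjusted p = 0.0133).

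**Figure D1:**
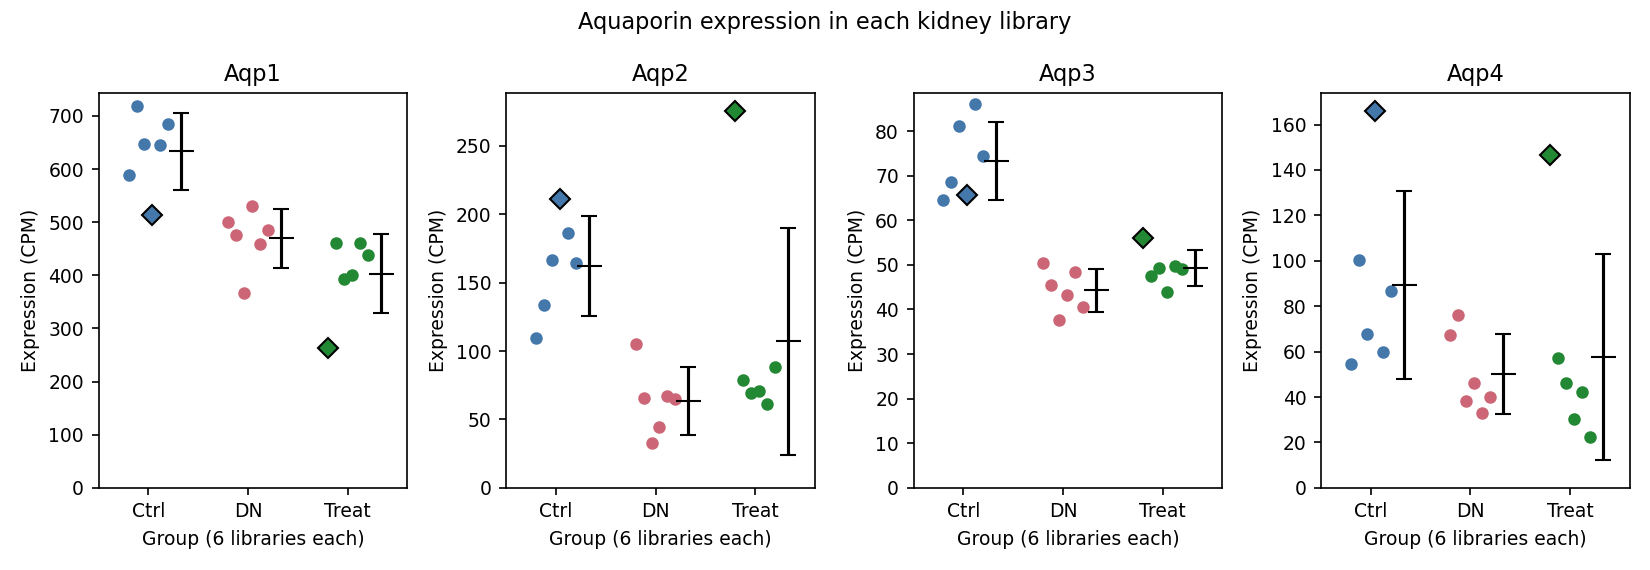
Expression of the 4 aquaporins in CPM (y axis, from 0) in each of 6 libraries per group, with the mean and SD beside the points. Diamonds with a black outline are control library 4 and treated library 1. All DN points lie below all control points for Aqp2 and Aqp3, and treated library 1 lies at 275.7 CPM for Aqp2.

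Of the 4 aquaporins, 3 were called lower in DN than in Ctrl, where 15.3% of all genes tested were called lower. The median log2 fold change of the 4 was -0.78, against 0.01 over all genes tested. The groups did not overlap for 2 of them, Aqp2 and Aqp3, and 7.89% of all genes had DN wholly below Ctrl. When the divided controls were given a coefficient of their own, so that control library 4 became the only reference, 2.78% of genes were called lower. That fit sets the DN libraries against 1 control, which is assumed to vary like the other groups and is itself a library that stands apart, so its values describe control library 4 and neither uphold nor end a call. The log2 fold changes were -0.57 for Aqp3, -1.74 for Aqp2, -1.73 for Aqp4 and -0.13 for Aqp1 (SE 0.16, 0.56, 0.58 and 0.22; edgeR adjusted p = 0.0421, 0.0778, 0.0903 and 0.774). Control library 4 held 514.1 CPM of Aqp1, which was 1.1 times the DN mean.

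Between Treat and DN, which differ by the TSK given, no aquaporin passed its test. The count was 0 of 4 by the edgeR quasi-likelihood test, by DESeq2 and by limma voom, with 1 of 4 at an unadjusted p under 0.05. Of the 19233 genes tested, 268 (1.39%) were called in this comparison by edgeR, 766 by DESeq2 and 737 by limma voom. The share of all genes at an unadjusted p under 0.05 was not counted. Aqp2 ran from 61.18 to 275.7 CPM in Treat with a median of 74.52, so that 5 of 6 treated libraries were above the DN median of 65.33 CPM. Treated library 1 alone held 275.7 CPM, and the other 5 held at most 87.98 CPM, inside the DN range. The mean was 107.2 ± 83 CPM in Treat and 63.3 ± 24.9 CPM in DN (SD, n = 6 each; log2 fold change 0.76, SE 0.34, 95% interval 0.05 to 1.48, edgeR adjusted p = 0.274, unadjusted p = 0.0381). Without treated library 1 the treated mean was 73.54 ± 10.1 CPM (SD, n = 5) and the log2 fold change was 0.22 (SE 0.22, adjusted p = 0.713).

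The basolateral channels did not pass either. Aqp3 ran from 43.87 to 56.1 CPM in Treat (median 49.18), and 1 treated library, library 1, was above the DN range. Its means were 49.29 ± 3.98 CPM in Treat and 44.34 ± 4.84 CPM in DN (SD, n = 6 each), and the log2 fold change of 0.15 had a 95% interval of -0.03 to 0.34 (edgeR adjusted p = 0.409). Aqp4 ran from 22.48 to 146.7 CPM in Treat (median 44.19), and the direction of its difference rested on treated library 1. Its log2 fold change from DN was 0.2 (SE 0.38, adjusted p = 0.844) with that library, and -0.34 (SE 0.3, adjusted p = 0.653) without it. Aqp1 ran from 263.4 to 461.5 CPM in Treat with a median of 418.8, and all 6 treated libraries were below the DN median. Its mean was 403 ± 74.3 CPM, against 469.4 ± 56 CPM in DN (SD, n = 6 each; log2 fold change -0.22, 95% interval -0.48 to 0.04, edgeR adjusted p = 0.401), and without treated library 1, the lowest, the log2 fold change was -0.12 (adjusted p = 0.609).

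**Figure D2:**
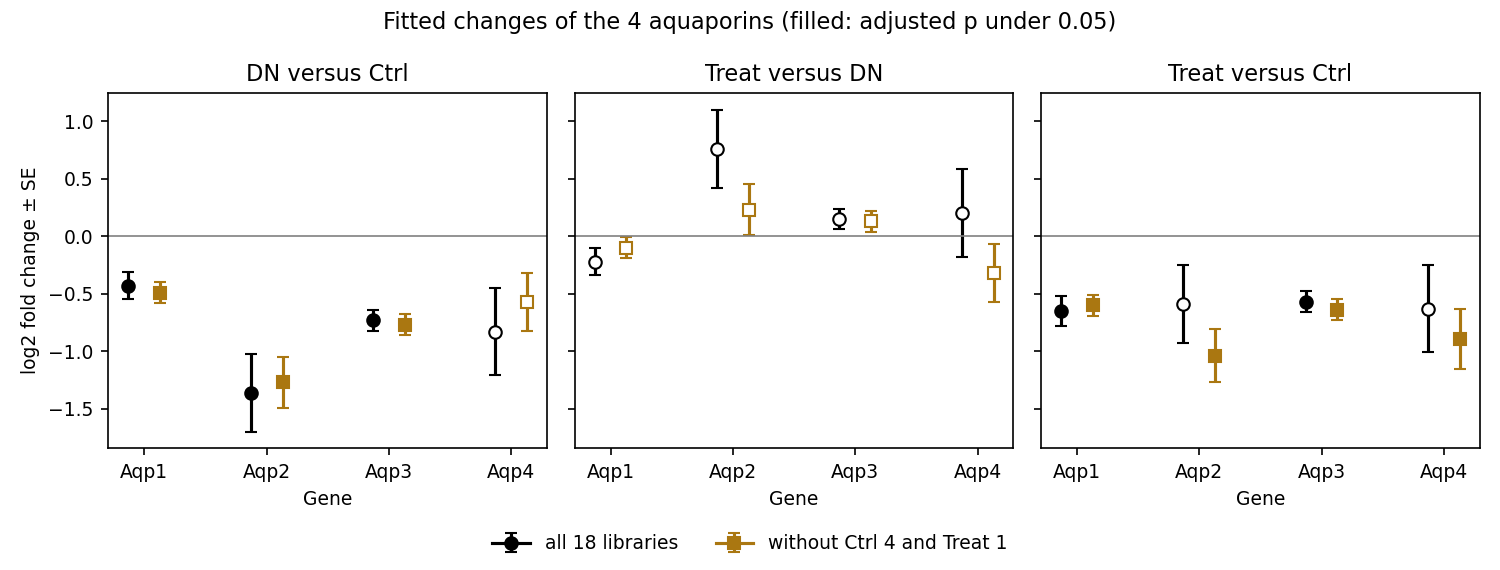
Fitted log2 fold change (y axis, points with SE) of each aquaporin in the 3 comparisons, with all 18 libraries (black) and without control library 4 and treated library 1 (brown). Filled points have an adjusted p under 0.05. The Treat versus DN value of Aqp2 moves from 0.76 to 0.23 and that of Aqp4 from 0.2 to -0.32, whereas Aqp1 and Aqp3 are called against Ctrl in both fits.

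The comparison of Treat with Ctrl asks which aquaporins still differed from control kidneys after treatment. Aqp1 and Aqp3 were lower in all 6 treated libraries than in any control. Aqp1 averaged 403 CPM in Treat and 633 CPM in Ctrl, with a log2 fold change of -0.65 (SE 0.13; edgeR adjusted p = 0.000456). Aqp3 averaged 49.29 CPM in Treat and 73.4 CPM in Ctrl, with a log2 fold change of -0.57 (SE 0.09; edgeR adjusted p = 5.93e-05). Thus 2 of 4 aquaporins were called lower, where 21.9% of all genes were, and 2 had treated libraries wholly below the controls, where 13.2% of all genes did. This comparison shares the control libraries with DN versus Ctrl and the treated libraries with Treat versus DN, so the 3 sets of values are not independent.

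Aqp2 and Aqp4 did not pass against Ctrl in the main edgeR fit of all libraries. By limma voom, with a weight for each library, both were called with all 18 libraries. The values were -1.02 for Aqp2 and -0.88 for Aqp4 (voom adjusted p = 0.00112 and 0.00954), where 4902 of 19233 genes were called lower. For Aqp2, 5 of 6 treated libraries were below every control, while treated library 1 was above every control, and the log2 fold change was -0.59 (SE 0.34, edgeR adjusted p = 0.164). Without treated library 1 it was -1.14 (SE 0.23, adjusted p = 0.000723). For Aqp4 the log2 fold change was -0.63 (SE 0.38, adjusted p = 0.187) with treated library 1 and -1.17 (SE 0.3, adjusted p = 0.00472) without it, when 22.6% of all genes were called lower. All 4 aquaporins were thus called lower than in Ctrl in the fit that lacked this library, as they were by limma voom with all libraries. Without control library 4 the value of Aqp4 was -0.36 (adjusted p = 0.447). Against control library 4 alone, with the spread again taken from the other groups (5.78% of genes called lower), the values were -0.35 for Aqp1, -0.98 for Aqp2, -0.41 for Aqp3 and -1.53 for Aqp4 (SE 0.22, 0.59, 0.16 and 0.59; edgeR adjusted p = 0.312, 0.295, 0.101 and 0.105). With 1 reference library the missed threshold does not show that the treated libraries were alike to it.

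Ratios of counts within a library do not depend on how libraries are scaled, and they are compared here only between libraries, since reads of the genes may have been lost unevenly. The ratio of Aqp2 to Aqp3, the apical against the basolateral channel of principal cells, was 2.21 ± 0.527 in Ctrl and 1.4 ± 0.436 in DN (SD, n = 6 each). The ranges were 1.69 to 3.22 and 0.867 to 2.09, and they overlapped through DN library 1. In Treat the ratio was 2.1 ± 1.39 with all libraries, and 1.54 ± 0.222 (n = 5) without treated library 1, in which it was 4.91. Without control library 4, which was at 3.22, the Ctrl ratio was 2.01 ± 0.208 (n = 5). The ratio of Aqp2 to Aqp1, collecting duct against proximal channel, was 0.261 ± 0.0838 in Ctrl and 0.134 ± 0.0462 in DN (SD, n = 6 each). In Treat it was 0.318 ± 0.359 with all libraries, 0.171 ± 0.0245 (n = 5) without library 1 and 1.05 in that library. Without control library 4, which was at 0.411, the Ctrl ratio was 0.231 ± 0.0453 (n = 5). The ratio of Aqp3 to Aqp1 was closer between groups, at 0.117 ± 0.0144 in Ctrl, 0.0952 ± 0.0103 in DN and, without treated library 1, 0.112 ± 0.0082 in Treat. With all treated libraries it was 0.128 ± 0.042, and without control library 4 the Ctrl ratio was 0.115 ± 0.0149 (n = 5). In the ratios to Aqp4, treated library 1 was not the highest of its group. Aqp3 to Aqp4 was 0.959 ± 0.385 in Ctrl and 0.962 ± 0.3 in DN (SD, n = 6 each), and treated library 1 was the lowest treated library, at 0.382. Aqp2 to Aqp4 was 2.01 ± 0.703 in Ctrl and 1.32 ± 0.499 in DN, and treated library 1, at 1.88, lay inside the treated range of 1.38 to 3.91. These ratios are descriptions and were not tested.

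**Figure D3:**
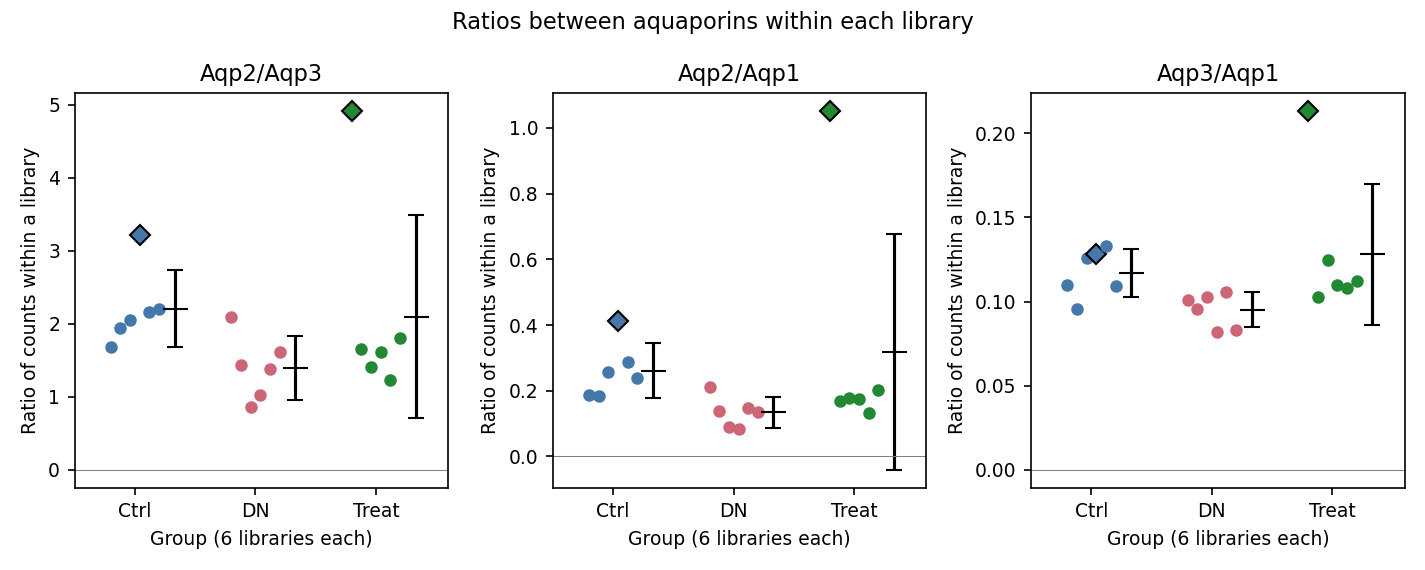
Ratio of the counts of 2 aquaporins within each library (y axis) by group, with the mean and SD beside the points; diamonds with a black outline are control library 4 and treated library 1. Treated library 1 has the highest ratio in each panel, at 4.91, 1.05 and 0.213, and the DN libraries have the lowest group mean in each panel.

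Within groups, Aqp2 and Aqp3 tended to be high in the same animals. Over the 18 deviations of log2 CPM from the group means, Pearson's r was 0.64 (permutation p = 0.00405, adjusted p = 0.0243 over 6 pairs of aquaporins) and Spearman's rho was 0.63 (permutation p = 0.00875, adjusted p = 0.0525). Pearson's r was 0.45 without the 2 libraries farthest from the median for Aqp2 (treated library 1 and DN library 3), and 0.76 without control library 4 and treated library 1. For Aqp2 and Aqp4, Pearson's r was 0.66 (permutation p = 0.0185, adjusted p = 0.0555) and Spearman's rho 0.43 (permutation p = 0.0841, adjusted p = 0.252). That relation rested on the libraries that stand apart, since Pearson's r was 0.29 without the 2 farthest libraries and 0.21 without control library 4 and treated library 1. The other 4 pairs had Pearson's r between -0.48 and 0.22 (lowest adjusted permutation p = 0.226; Spearman's rho -0.24 to 0.25, lowest adjusted permutation p = 0.531). The negative values were -0.44 for Aqp1 with Aqp2 and -0.48 for Aqp1 with Aqp4. They stayed negative, at -0.24 and -0.12, without the 2 libraries farthest from the median for Aqp1 (treated library 1 and DN library 3). They became 0.48 and 0.43 without control library 4 and treated library 1. Those libraries had the highest Aqp2 and Aqp4 and the lowest Aqp1 of their groups.

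**Figure D4:**
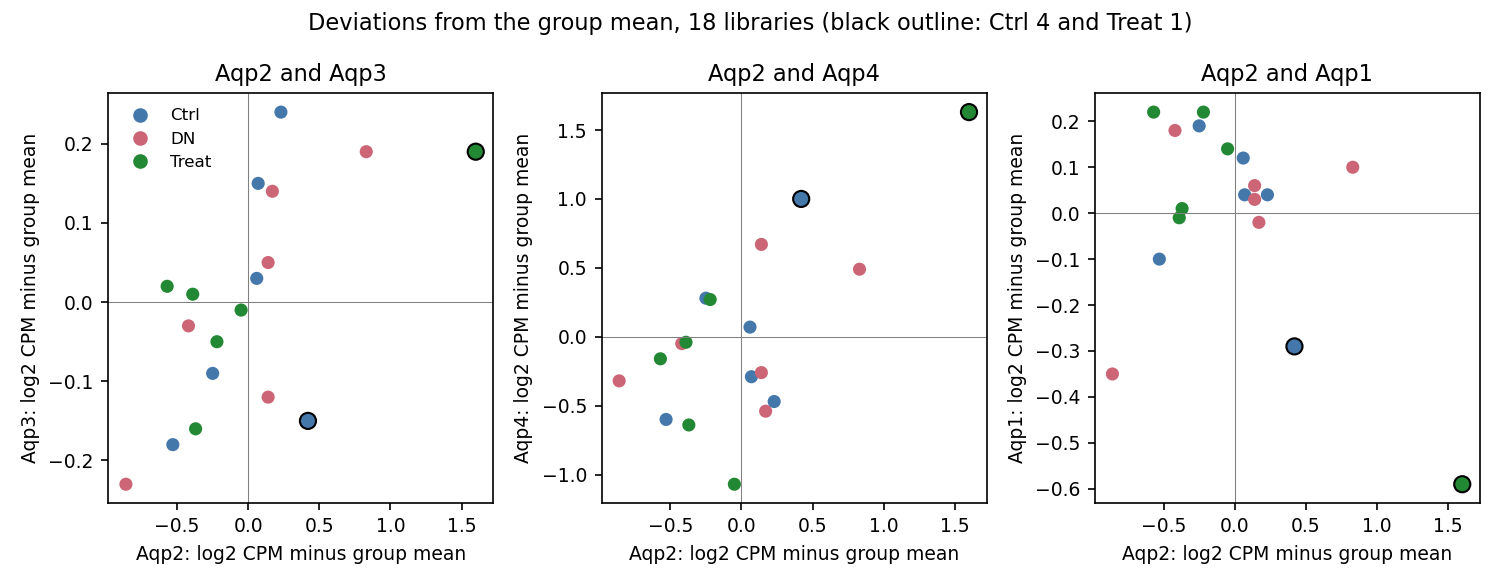
Deviation of log2 CPM from the group mean for Aqp2 (x axis) against Aqp3, Aqp4 and Aqp1 (y axes) in the 18 libraries, coloured by group. The 2 points with a black outline, control library 4 and treated library 1, lie at 0.42 and 1.6 for Aqp2 and at -0.29 and -0.59 for Aqp1.

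Among 11808 other identifiers with a mean of at least 5 CPM, the closest in pattern to Aqp1 over the 18 libraries was ENSMUSG00000026991, with a Pearson correlation of log2 CPM of 0.965, or 0.921 for deviations from group means. Its means were 304, 222 and 199 CPM in Ctrl, DN and Treat. The closest to Aqp2 was ENSMUSG00000019464, at 0.92 (0.857 within groups), with means of 13.1, 6.37 and 9.71 CPM. The highest correlation was 0.945 for Aqp3 and 0.919 for Aqp4. A correlation above 0.9 was reached by 128 identifiers for Aqp1, by 30 for Aqp3, by 3 for Aqp2 and by 2 for Aqp4. For deviations from group means the numbers were 4 for Aqp1, 0 for Aqp2, 0 for Aqp3 and 4 for Aqp4. These correlations share the same libraries, scaling and group differences and are given as descriptions.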

How the data were processed

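Kidney RNA of 18 animals was analysed from a table of raw counts per gene that the authors deposited, with 1 column per library. Per the labels' protocols, a Qiagen kit yielded the RNA and a SMARTER mRNA kit the libraries. The genome builds were GRCm38 and mm10, per the submitters' processing notes; for the aligner, the counter, the annotation and strandedness, the tool or setting is not given in the sources used here. Groups and replicate numbers came from the sample titles, and columns were matched by library name.

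The counts were fitted with edgeR 4.0.16 in R 4.3.3: filterByExpr, TMM factors, 1 coefficient per group over all 18 libraries, and quasi-likelihood F-tests (glmQLFit, glmQLFTest), with an adjusted p under 0.05 called. SEs were derived from the F statistics, CPM used TMM-scaled totals, and log2 CPM a prior count of 2. The script was tested on simulated data. Correlations used 100000 permutations within groups. Alternatives were DESeq2 1.42.0, limma 3.58.1 (voom), other scalings and filters, fits of 2 groups only, the replicate number as a block, a covariate for the divided controls, and libraries left out.

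The named genes are the 4 aquaporins and the identifiers most like them in pattern, of which only the closest to Aqp1 and to Aqp2 are printed, because the files pair no identifiers with names. The rat gene table used here matched 0 of the 55335 identifiers, so 17 further gene lists (146 symbols, 0 matched), other aquaporins and the vasopressin pathway among them, could not be used. The members and lists were chosen with earlier results of these data known. No other identifier had counts within 3% of an aquaporin's in every library. All pairs of libraries in a group differed beyond sampling noise (chi-square per degree of freedom at least 12.8). The series description gives 6 animals per group.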

Additional observations from a re-analysis of the deposited data

Results flagged for a closer look

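A library far from the other 5 of its group was found in 9 of 30 sets of 6 values (the levels of 4 aquaporins and 6 ratios in 3 groups); chance gives this in about 1 set of 20, and the sets share libraries. In 7 of the 9 it was treated library 1. That library held 275.7 CPM of Aqp2 and 146.7 CPM of Aqp4, far above the other treated libraries, and 263.4 CPM of Aqp1, far below them. Its count ratios were 4.91 for Aqp2 to Aqp3, 1.05 for Aqp2 to Aqp1, 0.213 for Aqp3 to Aqp1 and 0.557 for Aqp4 to Aqp1, each far above the other treated libraries. In the other 2 sets it was control library 4, with a ratio of 3.22 for Aqp2 to Aqp3 and of 0.323 for Aqp4 to Aqp1. No aquaporin level or ratio was far from the rest in DN.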

How the results depend on the processing

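The direction of 11 of the 12 fold changes held in every alternative. The exception was Aqp4 in Treat versus DN (0.2 with all libraries), which was -0.35 with limma voom, -0.32 without control library 4 and treated library 1, and -0.34 to 0.36 with single libraries left out (-0.34 without treated library 1). With a covariate for the divided controls, which sets 1 control against 6 libraries with the spread taken from the other groups, the values no longer called were -0.13 for Aqp1 and -1.74 for Aqp2 in DN versus Ctrl, and -0.35 for Aqp1 and -0.41 for Aqp3 in Treat versus Ctrl; that fit called 986 genes for DN versus Ctrl (6202 without the covariate) and 1862 for Treat versus Ctrl (8629). Against all controls these values were, in order, -0.43, -1.36, -0.65 and -0.57, so larger in size for Aqp1 and Aqp3 and smaller for Aqp2. With 1 reference control, a missed call does not show likeness to it. Aqp4 in DN versus Ctrl was newly called at -0.81 with only the 12 libraries compared (2979 of 18350 genes called lower). In Treat versus Ctrl, voom newly called Aqp2 at -1.02 and Aqp4 at -0.88 (4902 of 19233). Without control library 4 and treated library 1, both were called at -1.04 and -0.89 (4234 of 19338). With single libraries left out, Aqp4 ranged from -0.99 to -0.56 in DN versus Ctrl and from -1.17 to -0.36 in Treat versus Ctrl, and Aqp2 in Treat versus Ctrl from -1.14 to -0.48. All calls gained this way came without treated library 1.

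The number of genes called in Treat versus DN (268) was 775 with library totals, 119 without the filter, 766 with DESeq2, 737 with voom, 116 with only the 12 libraries compared, 593 without control library 4 and treated library 1, and 97 to 446 with single libraries left out. It moved by over 1.5 times without control library 6 (164), DN library 1, 2, 4 or 6 (152, 119, 97, 125) and treated library 1, 3 or 6 (446, 119, 160). Scaling by totals alone called 654 genes up and 121 down in Treat versus DN (103 and 165 with TMM), and 5670 up and 3127 down in Treat versus Ctrl (4415 and 4214). The median over all genes was then 0.13 in both comparisons, against -0.01 and 0.02. No aquaporin changed direction or call, but the sizes moved. In Treat versus DN the values with totals were -0.1 for Aqp1, 0.93 for Aqp2, 0.29 for Aqp3 and 0.36 for Aqp4. With TMM they were -0.22, 0.76, 0.15 and 0.2. The cause of these changes was not tested.

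With the replicate number as a block, Aqp2 in Treat versus Ctrl was called at -0.86 (edgeR adjusted p = 0.0381, 4056 of 19233 genes lower). In Treat versus DN 117 genes were called, and no other aquaporin call changed. Same-numbered libraries of different groups did not deviate together (correlations from -0.19 to 0.19, 2 of 18 pairs above 0.1), and 2 of 18 libraries correlated best with their own number. This gave no sign that the numbers pair the animals, which the labels do not state, but it cannot exclude a pairing. Counts of 587 or more per aquaporin and library make counting error small beside the spread between animals.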
